A study of Mus musculus with 20 samples.

Results

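Transcripts of red blood cells were followed through every library of a mouse study of the gonadal fat pad and the liver. They are the genes of the adult hemoglobin chains (Hba-a1, Hba-a2, Hbb-bs and Hbb-bt), of the first enzyme of heme synthesis in red cells (Alas2) and of the anion exchanger of the red cell membrane (Slc4a1). These are 6 of the 48440 genes in the deposited table. They were chosen by their counts, because all of them lay lower in KO than in WT mice in both tissues, so the values of KO against WT are a description here, with no test. The tests were made on other contrasts than the one that chose the members, but from the same libraries and values, namely how far fat and liver of the same replicate number agree, how the levels differ between fat and liver within a genotype, and how the members stand to each other within a library.

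The study compared mice labelled AdEpsKO, called KO here, with wild-type (WT) mice, all with a C57BL/6 strain background. No source used here says what AdEpsKO stands for, so the promoter, the cells and the exons concerned are not known, and KO liver means liver of mice with this label. Both genotypes had 1 week of high fat diet and a fast of 6 h, after which the gonadal fat pad and the liver were taken. Fat and liver of KO and of WT mice made 4 groups, each of 5 libraries numbered 1 to 5, from 5 mice per group. The labels do not say that a fat and a liver library of the same genotype and number come from the same mouse, nor the age or sex of the mice, nor whether blood was flushed from the tissues.

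Hemoglobin, the oxygen carrier of blood, is built of alpha and beta globin chains that each hold a heme. Globin messenger RNA is the dominant transcript of reticulocytes, the young red cells that have already lost their nucleus; mature red cells keep little RNA. In the adult mouse red cells form in bone marrow and spleen and reach other tissues in the blood. Alas2 sets the pace of heme synthesis in erythroid cells, while its sister Alas1 does so elsewhere, and Slc4a1 (band 3) exchanges chloride for bicarbonate and anchors the membrane skeleton.

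A fat library held 12880933 to 17276907 expected counts in total, and a liver library 13836370 to 20784145. Prkce, the gene of protein kinase C epsilon that the study targeted, held 22.3 to 35.1 CPM (counts scaled to library size) in KO fat and 35.2 to 67.1 CPM in WT fat, without overlap, and 8.64 to 14.3 CPM in KO liver and 10.6 to 19.96 CPM in WT liver, with overlap. The tissues carried their own markers, since 8 adipocyte markers summed to between 20108 and 35127 CPM in fat and to at most 73.0 CPM in liver. Skeletal muscle markers varied widely between libraries of 1 group (16.7 to 849 CPM in WT fat and 0.92 to 256 CPM in WT liver), and so did bladder epithelium markers in KO fat (51.8 to 1886 CPM, median 91.9), highest in KO fat 2. The muscle markers were highest in KO fat 2, WT fat 2, WT liver 2 and WT liver 4. Results without them are also given for KO against WT, for fat against liver in WT, and for the agreement of fat and liver. In bulk tissue, fewer cells of a type and less RNA per cell cannot be told apart.

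The globin genes come in pairs of near-identical copies, which sets how far their reads can be assigned. On genome build GRCm38, Hba-a1 lies on chromosome 11 from 32283511 to 32284465 and Hba-a2 from 32296489 to 32297298, both on the plus strand. Hbb-bs lies on chromosome 7 from 103826534 to 103828096 and Hbb-bt from 103812524 to 103813996, both on the minus strand; C57BL/6 mice carry this single haplotype of the beta globin cluster. The coding sequences of the alpha pair, 429 bases each, differ at 1 base, C381T, and those of the beta pair, 444 bases each, also at 1, C417T, counted from the A of the start codon. The stretches of 41 coding bases around these positions are shown in the reference's annotated transcripts, with the differing base in capitals.
Hba-a1: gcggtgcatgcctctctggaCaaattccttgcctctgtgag
Hba-a2: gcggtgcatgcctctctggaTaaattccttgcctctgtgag
Hbb-bs: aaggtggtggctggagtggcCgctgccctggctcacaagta
Hbb-bt: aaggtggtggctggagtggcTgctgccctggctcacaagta
A coding read that covers neither position fits both copies of a pair. All 20 values of each globin gene were nevertheless whole numbers (within 0.01), so no fractions of reads were shared out between copies in the deposited table, and whether shared reads were dropped or given to a copy is not stated. The split within a pair is therefore uncertain. Sums over a pair do not depend on that split, but they too would miss shared reads if these were dropped.

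The promoters show the sequence that the members share. RefSeq promoter windows on GRCm38.p6 were found for 5 of the 6 members, but none for Slc4a1. Upstream of the alpha genes, the 187 bases from -187 to -1 of Hba-a1 and from -190 to -4 of Hba-a2 were the same at every base, within a run of 297 shared bases in windows of 300. The Hba-a2 window, chr11:32296302-32296488 on the plus strand, has in capitals, in this order, a GATA motif (TGATAA), the first of its CACCC boxes, its only CCAAT box, the next CACCC box, and then a sequence like the TATA box (ATATAA).
Hba-a2: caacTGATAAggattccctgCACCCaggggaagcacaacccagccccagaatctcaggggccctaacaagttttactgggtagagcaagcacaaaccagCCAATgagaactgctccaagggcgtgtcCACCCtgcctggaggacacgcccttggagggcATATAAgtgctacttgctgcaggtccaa
The beta genes hold CACCC and CCAAT within 30 bases of each other, at chr7:103827994-103828023 for Hbb-bs and chr7:103813988-103814017 for Hbb-bt, minus strand, with 6 of 30 bases different. In Hbb-bt the capitals also cover ATTGG, which is CCAAT on the other strand.
Hbb-bs: agccaCACCCtggtaagggCCAATctgctc
Hbb-bt: ggtaaCACCCtggcATTGGCCAATctgctc
Further up, Hbb-bs holds AGATAA (chr7:103828121-103828150, minus strand), and Alas2 holds the same GATA motif on the other strand, as TTATCT (chrX:150547319-150547348, plus strand).
Hbb-bs: tgttctctgcacAGATAAggacaaacatta
Alas2: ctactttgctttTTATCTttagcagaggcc
CACCC boxes and CCAAT boxes, with GATA motifs, are the textbook elements of erythroid promoters, bound by Krüppel-like, nuclear factor Y and GATA factors. Short motifs are common, however. Of 32851 promoters searched over 250 upstream bases on both strands, the motif CACCC was present in 52.0%, CCAAT in 33.8%, the GATA motif AGATAA in 9.99% and its variant form TGATAA in 7.94%. The TATA box TATAAA was present in 12.4% and the overlapping form ATATAA in 9.1%. A match is a description of the letters and not a binding site.

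Alas2, on chromosome X from 150547375 to 150570638, plus strand, has a neighbour that bears on its values. It lies within the span of Apex2, a DNA repair endonuclease gene on the minus strand, and the 2 genes share 311 exon bases from 150570328 to 150570638. None of the 20 Alas2 values was whole, but the sum of Alas2 and Apex2 was whole in 20 of 20 libraries (within 0.01), so reads were divided between the pair. The Apex2 counts ran from 90.4 to 256 per library. Results on Alas2 were therefore also computed on the sum. Slc4a1, on chromosome 11 from 102348824 to 102366203, minus strand, overlaps no other annotated gene.

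Per kilobase of the main transcript, Hbb-bs was the most abundant member in every group, and Slc4a1 was the least. In WT fat the levels per kilobase were 1197 ± 758 CPM for Hbb-bs, 579 ± 314 for Hba-a1, 253 ± 176 for Hba-a2, 202 ± 124 for Hbb-bt, 30.0 ± 19.8 for Alas2 and 1.46 ± 0.854 for Slc4a1 (SD, n = 5). Hba-a2 and Hbb-bt differed by less than their spread there, and so did Hba-a1 and Hbb-bs. That spread is between libraries and largely shared by these genes, so it does not show that their levels are alike. In WT liver the order of Hba-a2 and Hbb-bt was the other way round, with 82.5 ± 42.6 for Hbb-bt and 72.6 ± 44.6 for Hba-a2, again within their spread. In KO fat Hbb-bs stood at 526 ± 278, while liver held 481 ± 255 in WT and 260 ± 105 in KO, all as CPM per kilobase (SD, n = 5). The 4 globin genes together took 0.0355% to 0.300% of all counts of a fat library and 0.0173% to 0.0916% of those of a liver library. The other globin genes of the mouse (6 embryonic and theta type genes) summed to at most 0.44 CPM in any library, and none passed the filter on low counts.

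Hba-a1 encodes an alpha chain of adult hemoglobin. In fat, the KO libraries 1 to 5 held 108, 131, 307, 174 and 129 CPM, and the WT libraries 140, 389, 726, 290 and 479 CPM. Library 3 was the highest of both genotypes, library 1 the lowest, and 3 of the WT libraries lay above every KO library. In liver, the KO libraries held 48.3, 117, 97.7, 47.7 and 45.9 CPM and the WT libraries 126, 223, 178, 92.3 and 88.3 CPM. Here libraries 2 and 3 were the highest of both genotypes, and the groups overlapped. The KO to WT ratio was 0.42 in fat (95% interval 0.22 to 0.80) and 0.50 in liver (0.28 to 0.90). Its copy Hba-a2 ran from 34.4 to 134 CPM in KO fat and from 31.7 to 295 CPM in WT fat, and from 10.0 to 29.6 CPM in KO liver and 19.5 to 77.8 CPM in WT liver. The WT library 1 of fat held the lowest Hba-a2 level of all 10 fat libraries, below each KO library.

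Hbb-bs is the adult beta globin gene with the higher counts, although the split within the pair is uncertain. In fat, the KO libraries 1 to 5 held 193, 237, 633, 308 and 282 CPM, and the WT libraries 258, 735, 1526, 503 and 738 CPM. The KO library 3 stood above 2 of the WT libraries, and WT library 1 below 3 of the KO libraries. In liver, the KO libraries held 102, 259, 202, 114 and 140 CPM and the WT libraries 256, 519.9, 415, 161 and 158 CPM. KO library 2 stood above 3 of the WT liver libraries, so the groups overlapped here too. The KO to WT ratio was 0.44 in fat (0.22 to 0.89) and 0.54 in liver (0.29 to 1.03). Hbb-bt followed with 33.2 to 101 CPM in KO fat, 46.9 to 282 CPM in WT fat, 14.1 to 45.9 CPM in KO liver and 31.6 to 95.9 CPM in WT liver.

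**Figure D1:**
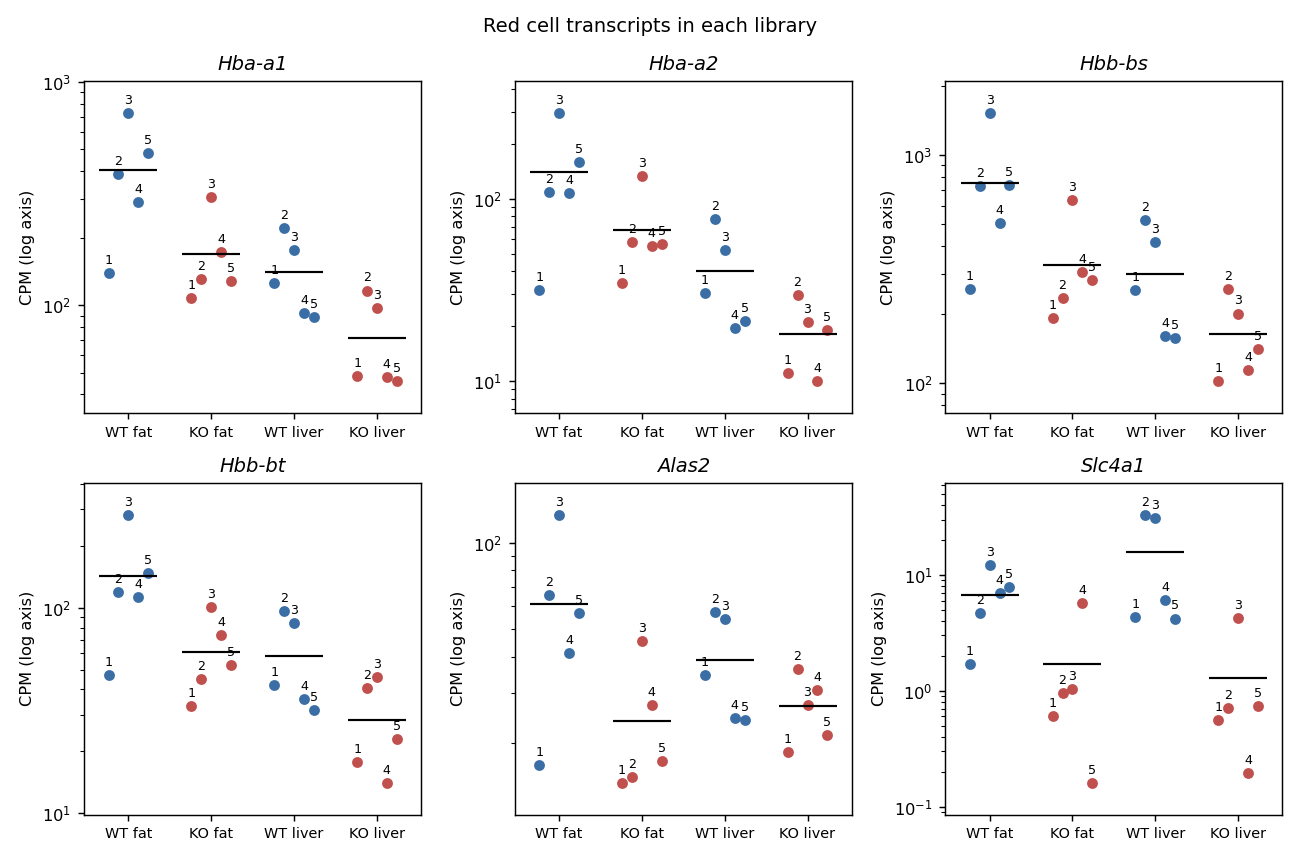
CPM on a log axis for each of the 6 members, with 1 point per library, its replicate number above it, blue for WT and red for KO; the horizontal lines are means of 5 libraries. WT fat library 3 is the highest for each globin gene and Alas2 (Hbb-bs 1526 CPM), and WT and KO points overlap in every panel and tissue.

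Alas2 makes the first intermediate of heme in red cells. In fat, the KO libraries 1 to 5 held 14.5, 15.2, 45.4, 27.2 and 17.3 CPM, and the WT libraries 16.8, 65.9, 125, 41.2 and 56.8 CPM. The order of libraries was close to that of the globin genes, with library 3 highest and library 1 lowest in both genotypes. In liver, the KO libraries held 18.6, 36.4, 27.2, 30.6 and 21.4 CPM and the WT libraries 34.6, 57.1, 54.3, 24.4 and 24.1 CPM. The KO to WT ratio was 0.39 in fat (0.18 to 0.84) and 0.69 in liver (0.44 to 1.08). With Apex2 added, the log2 difference of KO from WT was -0.92 in fat, against -1.35 for Alas2 alone, and -0.48 in liver, against -0.54.

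Slc4a1 was the scarcest member and the one with the widest range. In fat, the KO libraries 1 to 5 held 0.60, 0.95, 1.03, 5.75 and 0.16 CPM, and the WT libraries 1.69, 4.67, 12.2, 6.94 and 7.81 CPM. The KO library 5 rested on 2 counted reads, and KO library 4 stood apart from the other 4. In liver, the KO libraries held 0.56, 0.71, 4.22, 0.20 and 0.74 CPM and the WT libraries 4.34, 32.9, 31.0, 6.04 and 4.20 CPM. WT libraries 2 and 3 were more than any other library in the series, KO library 4 rested on 3 reads, and KO library 3 alone reached the level of the lower WT libraries. The KO to WT ratio was 0.26 in fat (0.086 to 0.82) and 0.086 in liver (0.018 to 0.40).

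Across the members, the median log2 difference of KO from WT was -1.24 in fat and -1.01 in liver, against medians over all tested genes of 0.001 and 0.0001. The log2 differences of single members ran from -1.92 to -1.06 in fat and from -3.54 to -0.54 in liver. In fat 49.8% and in liver 50% of all tested genes lay below 0, against the 6 of 6 members that the choice itself fixed. For none of the 6 members were the KO and WT libraries apart in either tissue, a state with KO lower that 0.68% of 14707 genes in fat and 1.28% of 13298 genes in liver reached. Nothing is read from these counts, since the same contrast chose the members. Over all genes, edgeR's quasi-likelihood test called 0 in fat (0%), with 1079 at an unadjusted p under 0.05, and 1 in liver (0.00752%), with 1769. DESeq2 called 16 and 138. Without the 2 fat or the 2 liver libraries highest in muscle markers, the members' median was -1.19 in fat and -0.88 in liver.

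**Figure D2:**
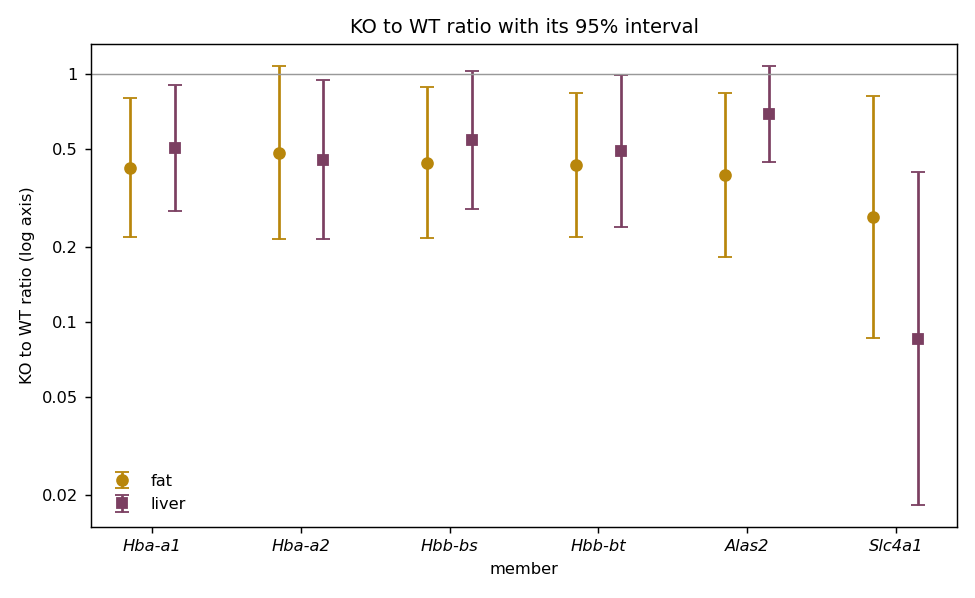
KO to WT ratio on a log axis for each member in fat (circles) and liver (squares), with 95% intervals from edgeR on 5 against 5 libraries, as a description, since this contrast chose the members. The ratios lie from 0.26 to 0.48 in fat and from 0.086 to 0.69 in liver, with the widest interval for Slc4a1 in liver.

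Set side by side, the log2 differences of KO from WT in the 2 tissues (fat less liver) were apart by -0.28 for Hba-a1 (95% interval -1.48 to 0.93), 0.081 for Hba-a2 (-1.41 to 1.58), -0.31 for Hbb-bs (-1.62 to 1.00) and -0.20 for Hbb-bt (-1.53 to 1.14). It was -0.83 for Alas2 (-2.09 to 0.43) and 1.63 for Slc4a1 (-0.95 to 4.20). Each of the 6 intervals spans 0, and each is wide, so the libraries do not settle whether the difference is larger in fat or in liver. Over all 15652 genes edgeR called 0 for this difference (0%), with 907 at an unadjusted p under 0.05.

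Other genes of red cells were counted from 4 lists (heme synthesis, red cell membrane and skeleton, erythroid transcription factors and receptors, and late erythroid genes), which hold 58 genes besides the members. In fat 42 of them passed the filter on low counts, 30 lay below 0 in KO against WT, and edgeR called 0, with a median log2 difference of -0.048. In liver 40 passed, 29 lay below 0 and 0 were called, with a median of -0.11. The most abundant genes of these lists are also made by other cells. The KO to WT ratio in fat was 0.77 (0.59 to 0.999) for Alas1, 0.99 (0.87 to 1.13) for the heme-forming ferrochelatase Fech, 1.05 (0.72 to 1.53) for the water channel Aqp1 and 0.91 (0.81 to 1.03) for the peroxiredoxin Prdx2. In liver it was 0.63 (0.41 to 0.99) for Alas1, 0.96 (0.85 to 1.09) for Fech, 0.98 (0.83 to 1.15) for Aqp1 and 0.91 (0.79 to 1.05) for Prdx2.

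Further genes of these lists are named after their values were seen. Bpgm, the mutase that makes the red cell regulator of oxygen release, stood at 23.7 ± 5.57 CPM in KO fat and 39.2 ± 14.4 in WT fat, and at 14.7 ± 2.37 against 21.7 ± 7.75 CPM in liver (SD, n = 5). Ank1, the ankyrin that ties Slc4a1 to the membrane skeleton, went the other way in fat, with 14.3 ± 26.5 CPM in KO and 3.76 ± 2.3 in WT, and its KO spread exceeded its mean. Their adjusted p by edgeR was 0.671 for Bpgm and 0.679 for Ank1 in fat and 0.308 for Bpgm in liver, so none passed.

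Markers of other blood cells were read beside the members. The summed CPM here were scaled to library size alone. In liver the summed platelet markers (11 genes, 0 at 0 in every library of a group) ran from 22.6 to 30.6 CPM in KO and from 31.8 to 36.8 CPM in WT, without overlap. In fat they ran from 27.4 to 88.8 and from 31.7 to 140 CPM. Genes of this list differed widely between the tissues, with WT fat to liver ratios from 0.021 (Clec1b) to 31.3 (Pf4) over 6 tested. Whether the sums follow platelets was not tested. The summed neutrophil markers (12 genes) ran from 4.74 to 13.0 CPM in KO liver and 8.6 to 18.9 CPM in WT liver, and from 15.0 to 35.4 and 12.8 to 39.9 CPM in fat, where Camp was at 0 in all 5 WT libraries. In liver the summed hepatocyte markers also differed, with 116891 to 135900 CPM in KO and 135937 to 159860 CPM in WT. No gene of these 3 lists was called in KO against WT in either tissue, and the part of these cells in the members' values was not tested. Skeletal muscle markers (8 genes) also lay lower in KO, for 8 of 8 tested in fat (median log2 difference -1.06) and 6 of 6 tested in liver (-2.88), with 0 called. Their summed levels overlapped, at 18.0 to 577 CPM in KO and 16.7 to 849 CPM in WT fat, and 0.60 to 27.8 CPM in KO and 0.92 to 256 CPM in WT liver. Without the libraries highest in them, the members' median log2 difference was -1.19 in fat and -0.88 in liver. The clearance genes of free hemoglobin and heme (8 genes) lay below 0 for 8 of 8 in liver and 6 of 8 in fat, with 0 called; the hemoglobin receptor Cd163 had a ratio of 0.59 (0.40 to 0.87) in liver and 0.64 (0.49 to 0.82) in fat, and the hemoglobin-binding plasma protein haptoglobin (Hp) 0.61 (0.45 to 0.83) in liver and 0.73 (0.42 to 1.27) in fat.

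The question for single libraries was whether a replicate number that was high in fat was also high in liver. Deviations of log2 CPM from the mean of the genotype were used, so the KO to WT difference plays no part. For the mean of the 6 members, KO 3 stood at 0.86 in fat and 0.74 in liver, and WT 3 at 1.22 and 0.75, so number 3 was high in both tissues in both genotypes. KO 1 was low in both, at -0.65 and -0.51, and so was WT 1, at -1.51 and -0.33, and WT 4, at -0.13 and -0.66. WT 5 was above its group mean in fat and below it in liver, at 0.35 and -0.77, and KO 4 likewise, at 0.53 and -0.63. KO 2 was the reverse, at -0.26 and 0.57, and WT 2 was near the mean in fat and the highest WT library in liver, at 0.068 and 1.01. KO 5 was below the mean in both, at -0.47 and -0.17. Pearson's r of these means was 0.38 over the 10 numbers.

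For single members r was of like size, except for Slc4a1, and none passed the test. Pearson's r between fat and liver over 10 numbers was 0.32 for Hba-a1, 0.29 for Hba-a2, 0.39 for Hbb-bs, 0.36 for Hbb-bt, 0.40 for Alas2 and -0.042 for Slc4a1. Spearman's rho was 0.15, 0.35, 0.18, 0.16, 0.45 and -0.27 in the same order. Two-sided exact permutation tests over all 14400 pairings within genotype gave p = 0.384, 0.504, 0.337, 0.342, 0.347 and 0.909 for r, and 0.701, 0.369, 0.677, 0.672, 0.246 and 0.468 for rho. Benjamini-Hochberg adjustment of the p of r over all 12447 genes measured in both tissues gave exact permutation values of 0.960 to 0.994, and the test called 0 of these genes (0%). A number was on the same side of its group mean in fat and liver for 8 of 10 numbers in Alas2, 7 of 10 in Hba-a1 and Hbb-bs, and 6 of 10 in Hba-a2, Hbb-bt and Slc4a1.

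**Figure D3:**
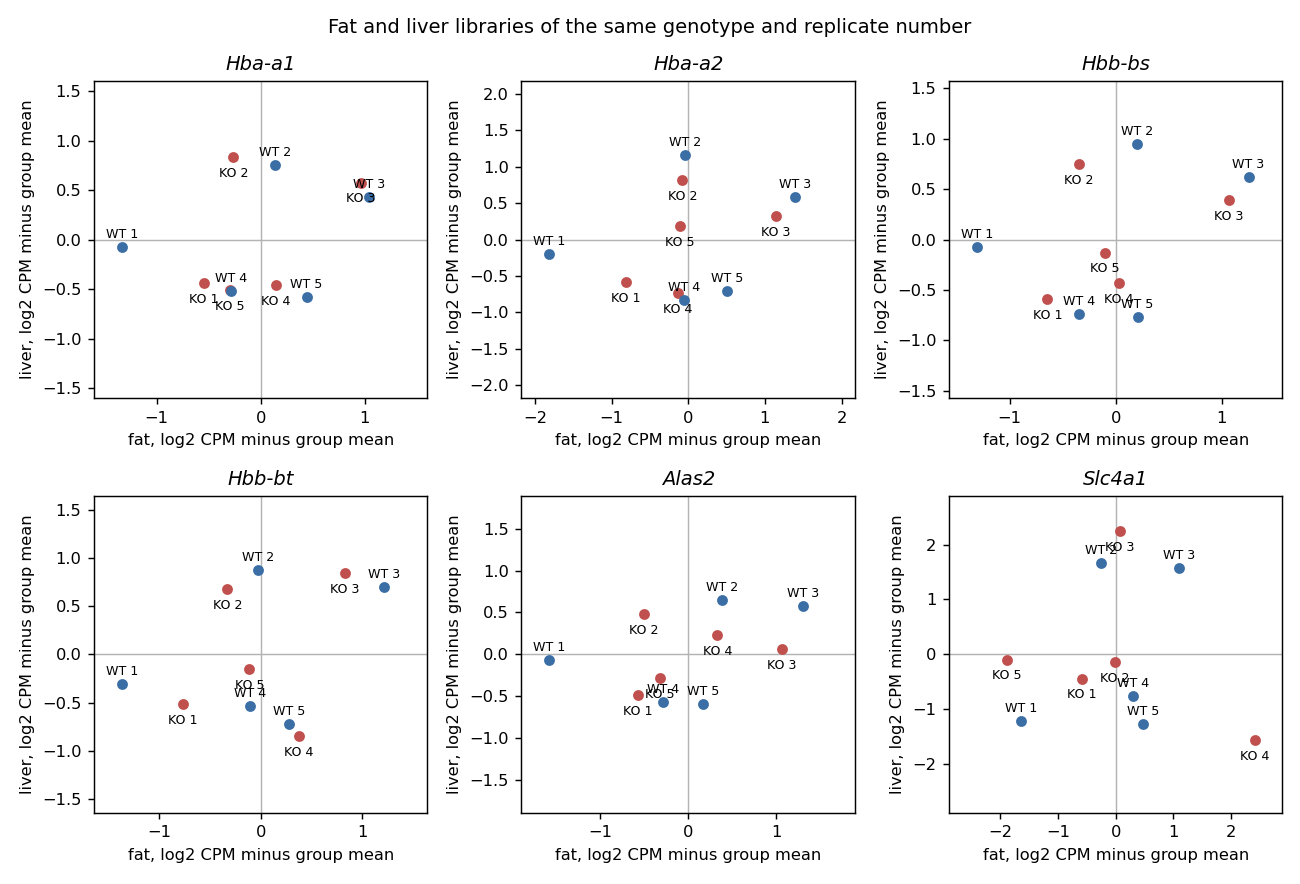
Deviation of log2 CPM from the mean of the genotype in fat (horizontal) and in liver (vertical) for the 6 members, with 1 point per genotype and replicate number, blue for WT and red for KO. KO 3 and WT 3 lie to the upper right in every panel, WT 5 lies to the lower right in every panel, and r is between -0.042 (Slc4a1) and 0.40 (Alas2).

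The members' correlations can be set beside those of all genes. The median r over the 12447 genes was -0.0062, with 49.31% above 0, and the members' median was 0.34, with 5 of 6 above 0. An unadjusted exact permutation p under 0.05 was reached by 616 genes (4.95%), 280 of them with a positive r, and by 0 of the 6 members. Leaving out the 2 numbers farthest from the median in fat (WT 1 and WT 3) gave r = 0.32 for Hba-a1, 0.19 for Hba-a2, 0.34 for Hbb-bs, 0.17 for Hbb-bt and 0.33 for Alas2 over 8 numbers. For Slc4a1, leaving out KO 4 and KO 5 turned r to 0.41, so its sign rested on these libraries. Without the numbers whose libraries were highest in muscle markers, 7 numbers were left. There r was 0.51 for Hba-a1, 0.50 for Hba-a2, 0.58 for Hbb-bs, 0.54 for Hbb-bt, 0.55 for Alas2 and -0.0011 for Slc4a1. The members' median was then 0.52, against 0.031 over all genes. With 144 pairings the exact permutation p cannot fall below 0.00694, and 0 members were called. The members are not independent of each other here, since their deviations move together within a tissue.

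That common movement was close in fat. Over the 10 fat libraries, r between deviations of any 2 members other than Slc4a1 was 0.94 to 0.98 (10 pairs), and 0.49 to 0.64 for the 5 pairs with Slc4a1. In liver the range was 0.74 to 0.97 for the 10 pairs and 0.55 to 0.90 for those with Slc4a1. The lowest value among the others in liver was that of Alas2 with Hbb-bt. These values are descriptions, and the genes share their libraries, their scaling and, for the globin copies, most of their sequence. The spread within groups was large, with an SD of log2 CPM of 0.76 to 1.32 in fat and 0.51 to 1.44 in liver, against medians of 0.25 and 0.23 over all genes. It exceeded that of 90.4% to 97.9% of the 14707 genes in fat and of 90.5% to 99.6% of the 13298 genes in liver.

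**Figure D4:**
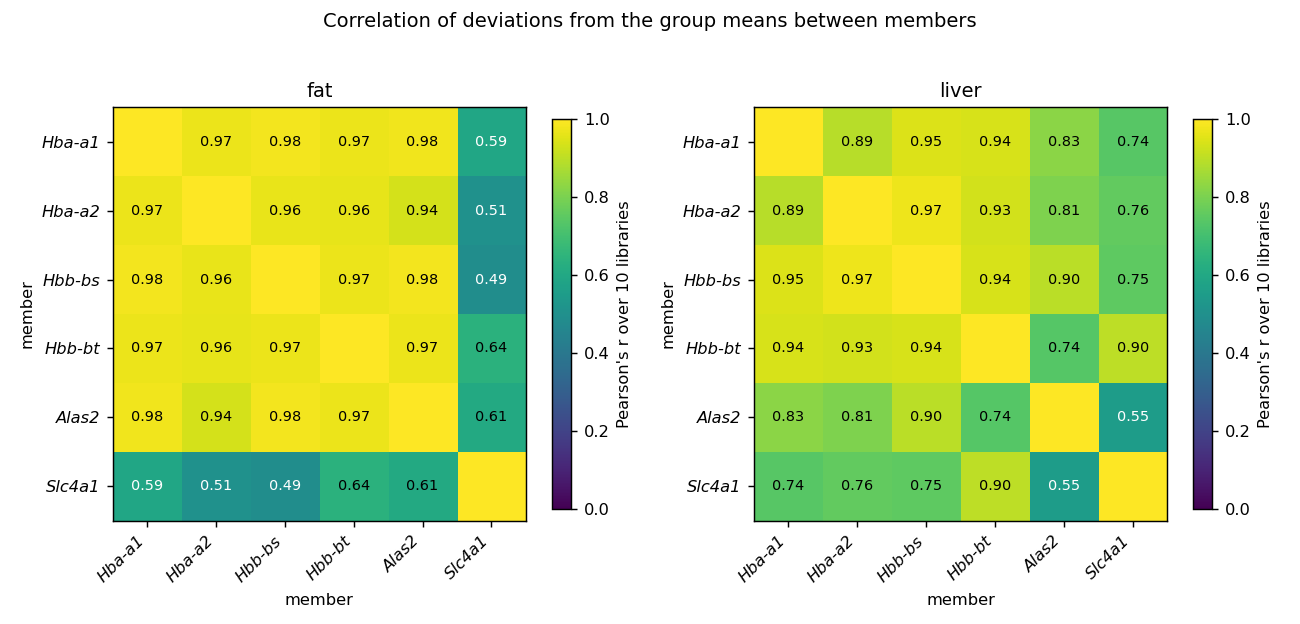
Pearson's r between the deviations of each pair of members from their group means, over the 10 libraries of fat (left) and liver (right), on a colour scale from 0 to 1. The globin genes and Alas2 lie between 0.94 and 0.98 in fat, and the pairs with Slc4a1 between 0.49 and 0.64.

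The genes whose deviations followed the members most closely differed between the tissues. Among them in fat were Tent5c (r = 0.97 with the mean of the members' standardized deviations), which encodes a poly(A) polymerase, Orai3 (0.97), Hacd4 (0.97), Ncoa3 (0.96), Sfrp2 (0.96), Card19 (0.96) and Pprc1 (0.95). Tent5c is on the list of late erythroid genes. Among them in liver were D130043K22Rik (0.94), Ypel5 (0.92), Rfc3 (0.92), Gpr39 (0.91), Mettl27 (0.90), Commd7 (0.90) and Tspyl2 (0.89). An r of at least 0.9 was reached by 58 of 14133 genes in fat and by 5 of 12370 in liver, each over 10 libraries. Orai3, Ncoa3 and Ypel5 varied little in level, with 27.9 ± 2.7 CPM for Orai3 in KO fat and 39.8 ± 2.03 CPM for Ypel5 in KO liver (SD, n = 5), so a high r here does not mean a large range.

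Fat was compared with liver within each genotype by edgeR, a contrast that did not choose the members but uses the same library values. In WT mice Slc4a1 was lower in fat, with a fat to liver ratio of 0.23 (95% interval 0.074 to 0.69) and an adjusted p of 0.0201 over 14739 genes. The other 5 members did not pass, with ratios of 1.52 (0.81 to 2.84) for Hba-a1, 1.85 (0.79 to 4.33) for Hba-a2, 1.32 (0.64 to 2.74) for Hbb-bs, 1.30 (0.64 to 2.64) for Hbb-bt and 0.83 (0.41 to 1.70) for Alas2. The 1 call among 6 members stands beside a background of 74.4% of all genes called, 35.9% lower and 38.5% higher in fat. The Slc4a1 call rested on WT liver 2 and WT liver 3, which also enter its KO to WT ratio in liver. Its adjusted p by edgeR was 0.0574 without the first, 0.0523 without the second, and 0.104 without the 3 WT libraries highest in muscle markers. Leaving out WT fat 1 brought Hba-a1 (adjusted p = 0.0444 by edgeR) and Hba-a2 (0.0483) past the threshold.

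In KO mice Alas2 was lower in fat than in liver, with a ratio of 0.48 (0.29 to 0.80) and an adjusted p of 0.0136 by edgeR over 14603 genes, and with Apex2 added the ratio was 0.62 (adjusted p = 0.0098). Leaving out each KO library in turn kept the Alas2 adjusted p by edgeR at 0.000287 to 0.0351. The call held by RLE scaling (log2 difference -1.09) but was lost by upper quartile and by library size alone. The Alas2 log2 difference was -0.79 by upper quartile (adjusted p = 0.0526 by edgeR) and -0.16 by library size alone (adjusted p = 0.681 by edgeR), against -1.07. Hba-a2 was higher in fat, with a ratio of 1.99 (1.08 to 3.66) and an adjusted p of 0.042 by edgeR. This call was lost without any of 8 libraries (all but KO fat 1 and KO liver 2), and without KO fat 3 the log2 difference was 0.57, against 0.99. Ratios of 1.27 (0.73 to 2.23) for Hba-a1, 1.08 (0.63 to 1.87) for Hbb-bs, 1.15 (0.64 to 2.09) for Hbb-bt and 0.71 (0.17 to 2.96) for Slc4a1 did not pass. Of all genes 74.7% were called, 35.7% lower and 39% higher in fat, against 2 of 6 members.

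These levels depend on how fat is scaled to liver. With the scaling used, 5674 genes were called higher and 5291 lower in WT fat than in WT liver, and 5692 and 5214 in KO. By library size alone the split was 10606 and 2249 in WT and 10356 and 2178 in KO, and by upper quartile 7184 and 3857, and 7075 and 3912. Library size alone moved the median of all genes to 0.97 in WT and 0.95 in KO on the log2 scale, and 4 of 6 members, the globin genes, were then called higher in fat in each genotype. The members' median moved with it, from 0.39 to 1.34 in WT and from 0.16 to 1.06 in KO. Ratios within a library do not depend on this choice.

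Within a library, the tissues differed in how the members stood to each other. The ratio of Alas2 counts to those of the 4 globin genes, taken per 1000, was 39.5, 32.3, 38.7, 44.6 and 33.3 in KO fat 1 to 5 and 35.3, 48.8, 44.2, 40.7 and 37.3 in WT fat. In liver it was 104, 81.6, 74.1, 165 and 93.8 in KO and 76.3, 62.4, 74.5, 79.1 and 80.6 in WT. All 10 fat libraries lay below all 10 liver libraries. Fat stood at 0.46 of the liver ratio, with a two-sided exact permutation p of 3.15e-05, the smallest that the 63504 permutations within genotype can give (0.000157 adjusted over 5 ratios). With Apex2 added to Alas2, fat stood at 0.55 of liver, with the same exact permutation p.

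The ratio of beta to alpha globin counts was also lower in fat. It was 1.59, 1.49, 1.66, 1.66 and 1.81 in KO fat 1 to 5 and 1.78, 1.72, 1.77, 1.55 and 1.39 in WT fat. In liver it was 2.02, 2.05, 2.09, 2.22 and 2.52 in KO and 1.91, 2.05, 2.17, 1.76 and 1.73 in WT. KO fat lay wholly below KO liver, while the WT libraries of the tissues overlapped. Fat stood at 0.80 of liver (two-sided exact permutation p = 0.000221, adjusted 0.000551). Summed over the pair, this ratio does not depend on how reads were split between the copies. If reads that fit both copies were dropped, it would still depend on the reads that were kept.

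Of the other ratios, Slc4a1 to globin was 0.34 of the liver ratio in fat (two-sided exact permutation p = 0.0109, adjusted 0.0156). It stood at 0.00469 ± 0.00139 in WT fat and 0.0244 ± 0.0142 in WT liver, without overlap, and in KO mice at 0.00292 ± 0.00373 in fat and 0.00422 ± 0.00423 in liver, with overlap (SD, n = 5). Hba-a2 to Hba-a1 was 1.34 times the liver ratio in fat (two-sided exact permutation p = 0.0125, adjusted 0.0156), at 0.39 ± 0.0654 in KO and 0.323 ± 0.0715 in WT fat, and 0.265 ± 0.086 in KO and 0.268 ± 0.0545 in WT liver. Hbb-bt to Hbb-bs did not differ past the threshold, at 1.05 times the liver ratio (exact permutation p = 0.496, also after adjustment). The 2 ratios of copies carry the uncertainty of near-identical sequence.

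**Figure D5:**
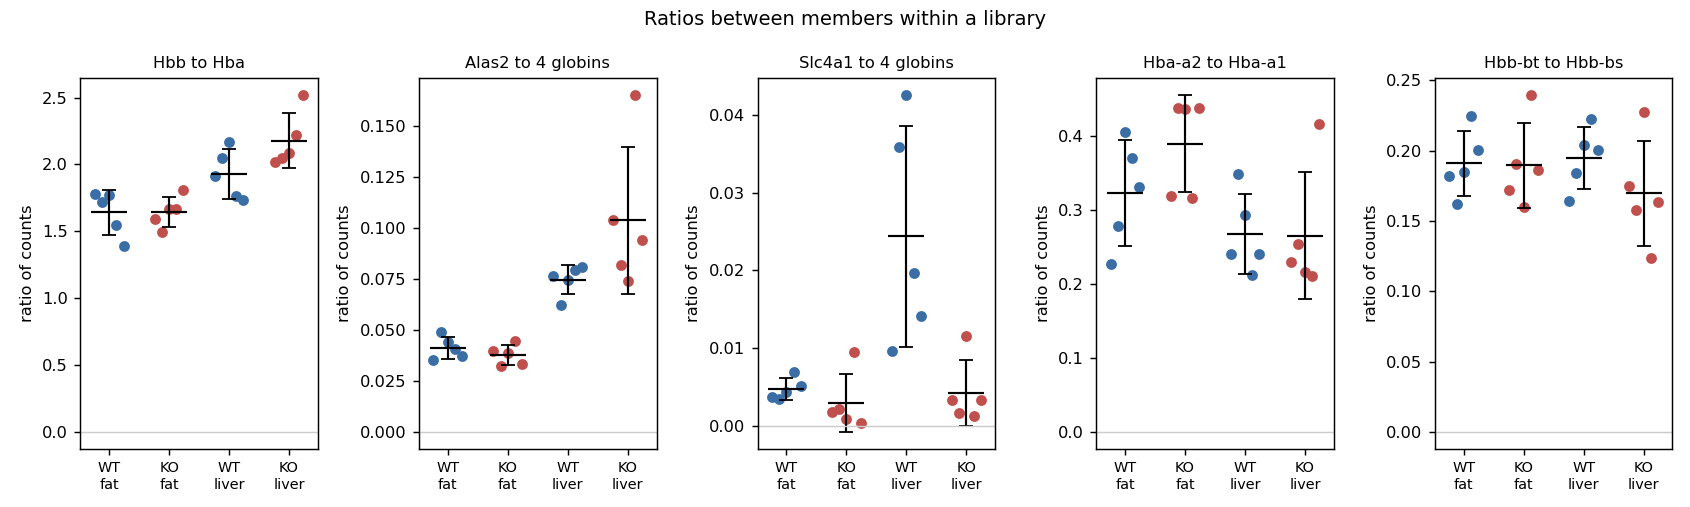
Ratios of counts within a library for WT (blue) and KO (red) in fat and liver, on linear axes that include 0, with 1 point per library and bars for the mean and SD of 5. The ratio of Alas2 to the 4 globin genes lies between 0.0323 and 0.0488 in fat and between 0.0624 and 0.165 in liver.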

How the data were processed

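RNA of the gonadal fat pad and liver was extracted with Qiagen RNeasy kits and sequenced from stranded TruSeq mRNA libraries, per the labels' protocols. The authors deposited 1 table of expected counts per gene, not normalized, with 20 columns. Their processing used the build GRCm38 with RSEM 1.2.12, STAR 2.4.0d, Trim Galore 0.2.8 and DESeq2, per the submitters' processing notes, which list no settings. The annotation release, and whether reads were counted by strand, were not given in the sources used here.

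Of the values in a library, 3.95% to 5.8% were not whole, and they were rounded for the tests. Symbols came from GENCODE M21. Genes were kept by filterByExpr (minimum count 10, minimum total 15) and libraries scaled by TMM within each comparison. edgeR 4.0.16 (quasi-likelihood, robust; limma 3.58.1, R 4.3.3) compared groups over all genes, with calls at an adjusted p under 0.05 by Benjamini-Hochberg. CPM of single genes use TMM within a tissue, and log2 CPM a prior count of 2. Summed CPM of gene lists were scaled to the total counts of a library alone, without TMM. Ratios add 0.5 to each count before the log2. Correlations and ratios were tested by exact permutation in scipy 1.17.1 and numpy 2.4.6. The steps were tested on simulated data. The edgeR p-values measure the spread between 5 mice a group. The permutation p-values rest on exchanged pairings of replicate numbers for the correlations, and on exchanged tissue labels within genotype for the ratios. The main ratio test treats fat and liver libraries as independent, although the labels do not say whether they share mice. Depth limits low genes most, above all Slc4a1.

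The 6 members and the 14 gene lists (147 symbols, 1 not found) were chosen with earlier results of these data known, from a session that saw them. Named genes are the members, Prkce, up to 4 of the most abundant genes of a list, and the 8 genes per tissue most like the members. A few genes under this rule are left out here. Alternatives were other scaling, no filter, DESeq2 1.42.0, other prior counts, Spearman's rho, copies summed, each library left out and the replicate number as a block. Leaving out libraries high in muscle markers and adding Apex2 to Alas2 were chosen after seeing the data.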

Additional observations from a re-analysis of the deposited data

Results flagged for a closer look

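In 44 groups of 5 values (the 6 members and 5 ratios, in each tissue and genotype), a library was singled out where its gap to the next exceeded 0.71 of the range of its group. That happened 7 times, each time for the highest value. This cutoff flags about 1 in 20 groups of normally distributed values. CPM and ratios were taken here without a log and are skewed to high values, and the 44 groups share libraries. No excess over chance can therefore be read from the 7. In KO fat, replicate 3 was far above the others for Hba-a2 (134 CPM, next 57.6) and for Hbb-bs (633 CPM, next 308). For Slc4a1 in KO fat it was replicate 4 (5.75 CPM, next 1.03), with a ratio to globin of 0.00948 (next 0.0021). For Slc4a1 in KO liver it was replicate 3 (4.22 CPM, next 0.74), with a ratio to globin of 0.0116 (next 0.00335). In KO liver, replicate 5 had an Hba-a2 to Hba-a1 ratio of 0.416 (next 0.254). All 7 lie in KO groups, and whether KO and WT differ in this was not tested.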

How the results depend on the processing

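The members' median log2 difference of KO from WT kept its sign under each alternative run, at -1.57 to -0.86 in fat and -1.22 to -0.76 in liver with 1 library left out. The count of genes called over the whole table moved with DESeq2 (16 in fat, 138 in liver). In liver it was 0 to 4 with 1 library left out and 4 without the pair highest in muscle markers; the cause was not tested. For fat against liver in WT, the members called were 4 by library size only, 0 with no filter, 0 without the 3 libraries highest in muscle markers and 0 to 3 with 1 library left out. In KO they were 1 by upper quartile, 4 by library size only, 1 with no filter and 1 to 2 with 1 library left out. Signs turned for Alas2 in WT (0.016 by upper quartile, 0.69 by library size only) and Slc4a1 in KO (0.41 by library size only). With 1 library left out, Slc4a1 in KO ran from -1.82 to 0.73, Hbb-bs from -0.024 to 0.69 in WT and -0.28 to 0.34 in KO, and Hbb-bt from -0.029 to 0.63 in WT and -0.069 to 0.45 in KO. None of these was past the threshold. The fat to liver r of Slc4a1 was 0.011 with a prior count of 5, -0.25 to 0.42 with 1 number left out and 0.41 without the 2 farthest.

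With the replicate number as a block, Slc4a1 to globin missed the threshold (log2 difference -1.54, adjusted p 0.0586 by an exact permutation test over 1024 sign flips). The Hbb to Hba and Alas2 to globin ratios were lower in fat for 10 of 10 numbers. Under the block, KO against WT called 0 genes in fat and 1 in liver, and the members called for fat against liver were 1 in WT and 2 in KO. The numbers were not taken to pair the libraries. Over all genes the median r of same-numbered libraries was 0.02 (KO) and 0.035 (WT) between fat and liver, 0.149 between KO and WT in fat and -0.094 in liver. In none of these did every number correlate best with its own. It was 3 of 5 numbers for KO against WT in fat and 1 of 5 in liver. Between fat and liver it was 1 of 5 in KO and 2 of 5 in WT. For KO against WT in fat, r of same-numbered libraries ran from -0.167 to 0.505, against a median of -0.07 for differing numbers. Whether a number shares anything across genotypes in fat was not tested.

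Low counts limit Slc4a1, 2 and 3 reads in its lowest libraries. Near-identical copies limit each single globin gene and, if shared reads were dropped, the globin sums and the ratios to them. Apex2 limits Alas2. With 5 mice a group and SDs near 1 on the log2 scale, single members have wide intervals, and an r over 10 numbers is imprecise.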
